A study of Rattus norvegicus with 9 samples.

Results

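Canonical Wnt signalling stabilises β-catenin, which acts with TCF/LEF transcription factors to switch on target genes, several of which feed back on the pathway. In the liver lobule, Wnt ligands and R-spondins made by the endothelium of the central vein keep this signalling high in the hepatocytes around that vein, and these pericentral hepatocytes carry out glutamine synthesis and much of the drug metabolism, whereas periportal hepatocytes carry out urea synthesis and gluconeogenesis. The genes described here are 10 established Wnt targets or pericentral genes, picked by name with earlier results of these data known: Axin2, Nkd1, Rnf43 and Znrf3, which restrain the pathway, Lgr5, a receptor for R-spondins, the transcription factors Tcf7 and Tbx3, and Lect2, Slc1a2 and Rhbg, which are expressed in pericentral hepatocytes. Of the 32883 genes in the deposited table, 9 carried these names. Znrf3 is not analysed here. Lgr5 had too few reads to be tested, so 8 of the genes were tested in each comparison.

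Liver mRNA was sequenced from 9 male Sprague-Dawley rats, 3 in each of 3 groups, with 1 library per rat. Normal control rats (N1, N3 and N12) received no carcinogen. DEN model rats (M13, M17 and M24) received the liver carcinogen diethylnitrosamine (DEN) at 0.01%, injected into the abdomen each week, on a schedule of 16 weeks. PZH administration rats (G27, G28 and G42) received DEN and also PZH (Pien-Tze-Huang), a traditional Chinese formula, at a dose that is not given for the sequenced rats, nor is the week at which each liver was taken or the age of the rats. Rats were grouped by the letter that opens their name, since the treatment tag in the labels gives PZH for M and G rats alike. Every direction between the DEN model and PZH administration groups rests on those letters.

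The libraries held 14922973 to 27161496 counted reads, and 3 reads corresponded to 0.125 to 0.252 CPM (reads of a gene scaled to a fixed library size), so that Lgr5 and Tcf7 rested on few reads. Values are CPM scaled with trimmed-mean-of-M-values (TMM) factors, which were 0.731 to 0.799 in the normal control rats, 1.21 to 1.58 in the DEN model rats and 0.864 to 0.942 in the PZH administration rats. Scaling by library totals in place of these factors shifted the median change of all genes, as log2 fold change, by 0.86 between DEN model and normal control rats, by -0.67 between PZH administration and DEN model rats and by 0.23 between PZH administration and normal control rats. Changes are given with TMM factors unless stated, under which that median was 0.029, 0.0053 and -0.019 in the same order. The rank correlation of counts between rats of a group was 0.948 to 0.982, and 0 pairs of libraries were identical. Genes were tested with the quasi-likelihood test of edgeR, and a gene passed when its p, adjusted over all genes by the Benjamini-Hochberg method, was under 0.05. A second rule took the study's thresholds, a log2 fold change beyond 2 in either direction and an unadjusted P under 0.001. With 3 rats a group, the smallest p that an exact permutation test can reach is 0.1. In whole liver, fewer cells of a type and less RNA per cell cannot be told apart. The liver label held for every group, since all 7 hepatocyte markers found in the table had reads in each group, but their summed level was 152783 to 165425 CPM in the normal control rats, 31886 to 72948 CPM in the DEN model rats and 121509 to 169533 CPM in the PZH administration rats.

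The sequences in front of 3 of the genes, and across the start of Tcf7, are shown because they hold the letters CTTTGAT or CTTTGAA, the core recognised by TCF/LEF factors, and because Nkd1 and Lect2, which both hold them, went opposite ways in the DEN model rats. The motifs were searched on both strands (ATCAAAG and TTCAAAG are their reverse complements) in RefSeq windows of 300 bases, from 250 before to 50 after each gene's start in build GRCr8. Of all 33469 windows 8.73% held a match. Among the genes described, 7 had a window and 5 held a match. Axin2 held 2, which began 232 and 132 bases before the start, Nkd1 held 1 at 141 bases, Lect2 held 1 at 68 bases and Tcf7 held 1 at 4 bases, while Slc1a2 held 1 at 189 bases in 1 of its 2 windows. These letters did not occur in the windows of Rhbg and Rnf43. The 250 bases before the start of Axin2 (chr10:94398535-94398784, plus strand), Nkd1 (chr19:34722847-34723096, minus strand) and Lect2 (chr17:8049784-8050033, plus strand), and 30 bases around the match of Tcf7 (chr10:36954266-36954295, minus strand), read as follows from 5′ to 3′, with the matches in capitals.
Axin2: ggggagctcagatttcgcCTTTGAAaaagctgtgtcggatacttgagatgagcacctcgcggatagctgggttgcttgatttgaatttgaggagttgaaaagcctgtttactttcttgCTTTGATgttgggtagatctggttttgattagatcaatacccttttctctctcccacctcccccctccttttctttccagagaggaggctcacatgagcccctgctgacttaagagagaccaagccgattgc
Nkd1: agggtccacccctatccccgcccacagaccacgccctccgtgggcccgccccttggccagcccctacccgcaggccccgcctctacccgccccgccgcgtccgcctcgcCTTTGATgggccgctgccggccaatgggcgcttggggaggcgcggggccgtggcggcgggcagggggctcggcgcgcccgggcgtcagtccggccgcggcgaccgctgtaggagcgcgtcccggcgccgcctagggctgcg
Lect2: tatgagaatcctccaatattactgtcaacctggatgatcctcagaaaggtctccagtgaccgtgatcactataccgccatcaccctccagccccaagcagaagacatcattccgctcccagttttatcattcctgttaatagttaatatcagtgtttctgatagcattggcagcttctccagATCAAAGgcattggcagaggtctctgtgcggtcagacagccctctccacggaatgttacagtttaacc
Tcf7: tgcccgcggtgcCTTTGATgttccgacccg

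The motif was thus shared by genes whose levels differed in direction: between normal control and DEN model rats Nkd1 rose, Lect2 and Slc1a2 fell, and Axin2 and Tcf7 did not pass the test. Nkd1 and Lect2 were picked for display with these directions known, so this is a description. A match is a string of letters and was not tested as a binding site.

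Levels of different genes were compared as the authors' FPKM, which allow for transcript length. In the normal control livers Lect2 was the most abundant of the 9 genes at 70.1 ± 6.86 FPKM (SD, n = 3), followed by Slc1a2 at 6.44 ± 3.50 FPKM, Tbx3 at 2.70 ± 0.924, Rnf43 at 2.59 ± 0.641, Axin2 at 1.98 ± 0.808, Rhbg at 1.36 ± 1.33, Nkd1 at 1.12 ± 0.559, Tcf7 at 0.872 ± 0.0764 and Lgr5 at 0.0260 ± 0.0226 FPKM. Among neighbours in that order only Lect2 and Slc1a2, and Tcf7 and Lgr5, had no overlap between their 3 rats. In the DEN model livers Lect2 was still first, at 19.1 ± 2.72 FPKM, but Nkd1 came second at 5.29 ± 1.01 FPKM, and Slc1a2 and Tbx3 stood at 2.07 ± 1.57 and 1.64 ± 1.02 FPKM, above Lgr5 at 0.356 ± 0.363 FPKM. In the PZH administration livers Lect2 (51.5 ± 25.9 FPKM) and Slc1a2 (6.76 ± 2.65 FPKM) again led, with Nkd1 at 1.46 ± 0.302 FPKM below Axin2 at 2.57 ± 0.861 FPKM and the ranges of those last 2 apart. The order within a group carries no test.

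**Figure D1:**
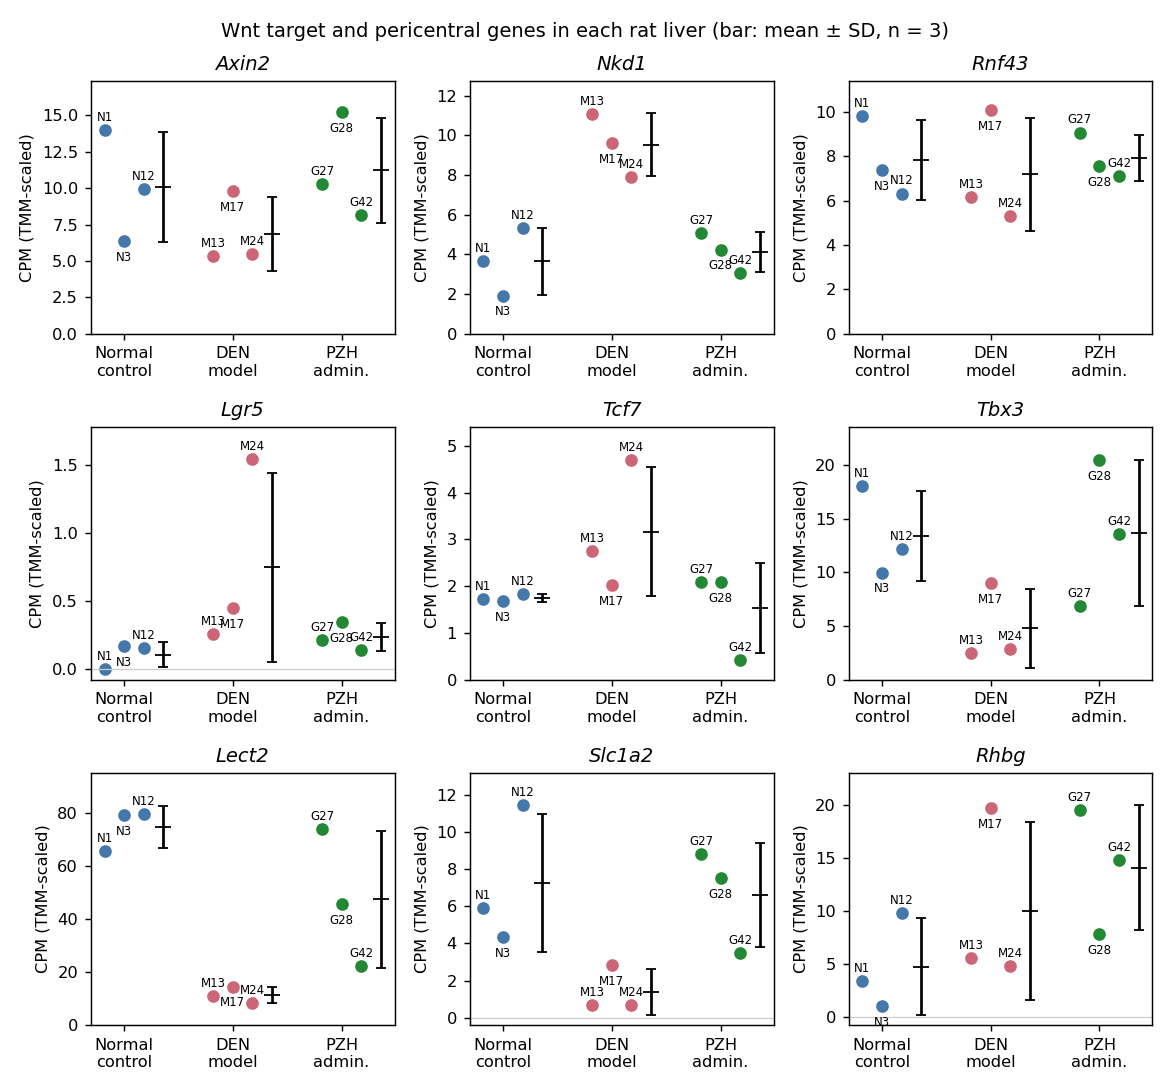
TMM-scaled CPM of the 9 genes in each of the 9 rats, 1 panel per gene with its own axis; points are rats and bars are the group mean ± SD (n = 3). Lect2 and Slc1a2 were lower in each DEN model rat than in each normal control rat, Nkd1 was higher, and Axin2, Rnf43 and Rhbg overlapped between those groups.

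Between DEN model and normal control rats, which shows these genes in a liver exposed to the carcinogen, Lect2, Slc1a2 and Tbx3 fell and Nkd1 rose, and Axin2, Rnf43, Rhbg and Tcf7 did not pass the test. That is 4 of 8 tested genes, where 45.8% of all 14255 tested genes passed, a share near the background, so the number that passed is not a result about these genes. By direction, 1 of 8 was higher (25.3% of all tested genes) and 3 of 8 were lower (20.5%). At the study's thresholds 1 of 8 passed, Lect2, where 12.3% of all tested genes did, and with library totals Nkd1 passed in its place. In TMM-scaled CPM the 3 rats of one group did not overlap those of the other in 5 of the 8 genes, beside 58.8% of all tested genes. The median log2 fold change of the 8 genes was -0.32, beside 0.03 over all tested genes.

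Among the genes that restrain Wnt signalling, Nkd1 passed and Axin2 and Rnf43 did not. Axin2, a scaffold of the complex that degrades β-catenin and a widely used readout of canonical Wnt signalling (ENSRNOG00000055010, chromosome 10, 97212432 to 97239642 in the authors' file), stood at 14.0, 6.37 and 9.91 CPM in the normal control rats and 5.31, 9.80 and 5.49 CPM in the DEN model rats. The groups overlapped, and the log2 fold change of -0.54 (SE 0.35) had a 95% interval of -1.34 to 0.27 (adjusted p = 0.245, edgeR). With library totals it was 0.26. Nkd1, which binds Dishevelled and dampens the pathway (ENSRNOG00000014293, chromosome 19, 19436333 to 19509087), stood at 3.67, 1.93 and 5.34 CPM in the normal control rats and 11.1, 9.60 and 7.90 CPM in the DEN model rats. Each DEN model rat lay above each normal control rat, and Nkd1 was 2.63-fold higher (log2 fold change 1.40, SE 0.36, adjusted p = 0.0134, edgeR). Rnf43, an ubiquitin ligase that removes Frizzled receptors from the membrane (ENSRNOG00000007606, chromosome 10, 74959285 to 75028951), stood at 9.83, 7.38 and 6.33 CPM against 6.16, 10.1 and 5.32 CPM. Its groups overlapped widely, with a log2 fold change of -0.11 (95% interval -0.81 to 0.59), which was 0.71 with library totals. Axin2 and Rnf43 therefore have no direction that held under both scalings, whereas Nkd1 was higher under both (2.24 with library totals). Markers of stellate cells and myofibroblasts moved with Nkd1 between these groups: 8 of the 10 rose, among them the collagen gene Col1a1 (5.40) and the smooth muscle actin Acta2 (3.94), and their summed level was 206 to 331 CPM in the normal control rats and 1145 to 3370 CPM in the DEN model rats. Within the DEN model group the highest stellate sum (M24) went with the lowest Nkd1, and the part of these cells in the Nkd1 result was not tested.

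Lgr5 (ENSRNOG00000004221, chromosome 7, 58448277 to 58587787) had 0, 2 and 2 reads in the normal control rats, 6, 9 and 37 reads in the DEN model rats and 5, 5 and 2 reads in the PZH administration rats. The normal control rats were thus at or under the floor of 3 reads and the single rat M24 held most of the DEN model reads, so no fold is given. The gene did not pass the filter on low counts, and a fit without that filter gave an adjusted p of 0.0796 between DEN model and normal control rats, 0.263 between PZH administration and DEN model rats and 0.709 between PZH administration and normal control rats (edgeR). A level of 1.54 CPM in M24 beside 0.25 and 0.45 CPM in M13 and M17 is given as a description.

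Of the 2 transcription factors, Tbx3 fell and Tcf7 did not pass. Tbx3, a T-box transcriptional repressor (ENSRNOG00000008706, chromosome 12, 42480560 to 42492526), stood at 18.02, 9.98 and 12.1 CPM in the normal control rats and 2.46, 8.96 and 2.87 CPM in the DEN model rats. In TMM-scaled CPM the groups did not overlap, although M17 lay close to the lowest normal control rat, and Tbx3 was 2.78-fold lower (log2 fold change -1.47, SE 0.49, adjusted p = 0.0372, edgeR). With library totals M17 (10.9 CPM) lay above N3 (7.30 CPM). The call was lost with library totals (log2 fold change -0.71, adjusted p = 0.177) and when any rat other than M17 was left out (adjusted p 0.0539 to 0.127), and without M17 the adjusted p was 0.00104. Tcf7, a TCF/LEF factor that is both a target of the pathway and abundant in T cells (ENSRNOG00000005872, chromosome 10, 37617279 to 37645802), stood at 1.72, 1.68 and 1.83 CPM in the normal control rats and 2.76, 2.03 and 4.70 CPM in the DEN model rats. The ranges were apart but Tcf7 did not pass (log2 fold change 0.88, SE 0.41, 95% interval -0.05 to 1.81, adjusted p = 0.110, edgeR), and it passed with library totals (1.78, adjusted p = 0.00951). T-cell markers moved with it: 7 of the 7 tested rose (4 without N1 or N3), Cd3e (3.17) and Cd3g (2.60) of the T-cell receptor complex among them. Those last 2 stood at 0.23 to 1.45 and 0.31 to 0.61 CPM in the normal control rats and passed the filter on low counts through the DEN model rats. Cd3d and Cd5 had too few reads to be tested with all rats in, so the count is a description. The summed level of the 9 markers was 27.2 to 51.0 CPM in the normal control rats, and it was 89.0, 110 and 141 CPM in M17, M13 and M24, the same order as Tcf7. Most of it was Cd4, at a mean of 29.9, 78.0 and 35.1 CPM in the N, M and G rats. The sum is therefore mainly a level of Cd4 and not of the genes of the T-cell receptor complex. The part of T cells in these Tcf7 levels was not tested.

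Of the genes expressed in pericentral hepatocytes, Lect2 and Slc1a2 had the largest log2 fold changes of the 8 tested and Rhbg did not pass. Lect2, a hepatokine secreted by hepatocytes (ENSRNOG00000012189, chromosome 17, 8489266 to 8495496), stood at 65.8, 79.4 and 79.8 CPM in the normal control rats and 10.997, 14.6 and 8.48 CPM in the DEN model rats. The gap between the groups was wider than the spread within either, and Lect2 was 6.53-fold lower (log2 fold change -2.71, SE 0.23, adjusted p = 0.000142, edgeR), as it was with library totals (-1.87). Slc1a2, the glutamate transporter GLT-1 of pericentral hepatocytes (ENSRNOG00000005479, chromosome 3, 92640752 to 92665644), stood at 5.93, 4.36 and 11.4 CPM in the normal control rats and 0.679, 2.82 and 0.665 CPM in the DEN model rats. It was 5.21-fold lower (log2 fold change -2.38, SE 0.63, adjusted p = 0.0152, edgeR), without overlap in TMM-scaled CPM, and its call was lost when N12, the highest rat, was left out (adjusted p = 0.0631). With library totals the Slc1a2 groups overlapped, with M17 (3.43 CPM) above N3 (3.19 CPM). Rhbg, an ammonium transporter (ENSRNOG00000019412, chromosome 2, 187610087 to 187622373), stood at 3.43, 1.01 and 9.84 CPM in the normal control rats and 5.56, 19.7 and 4.78 CPM in the DEN model rats. The rats of each group differed about as much as the groups did, and Rhbg did not pass (log2 fold change 1.08, SE 0.77, 95% interval -0.69 to 2.84, adjusted p = 0.285, edgeR).

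**Figure D2:**
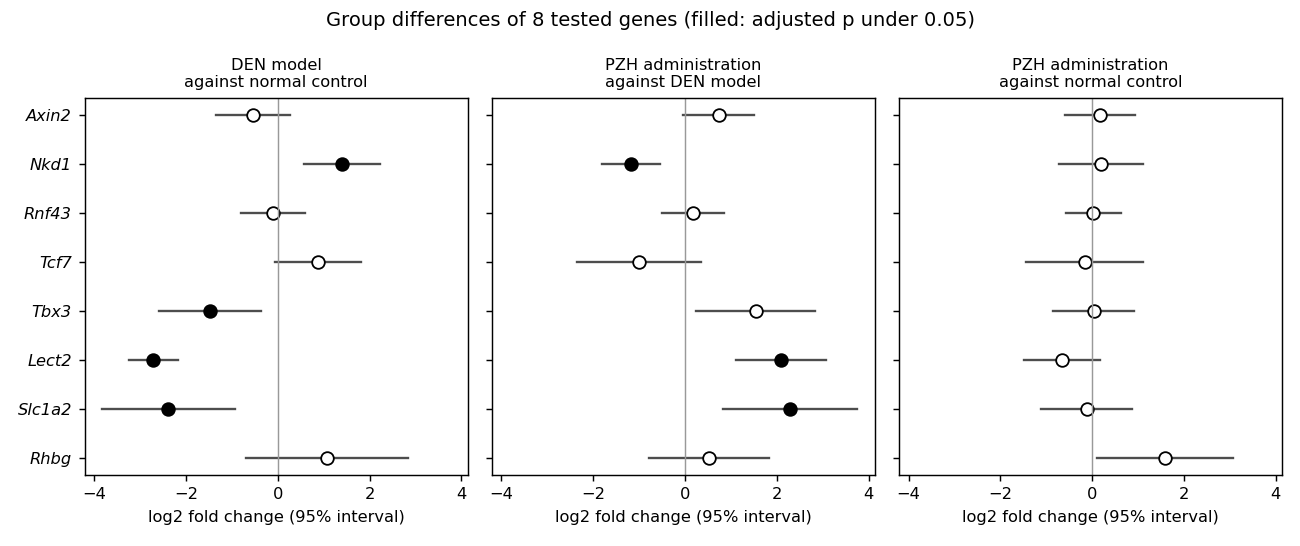
Log2 fold change of the 8 tested genes in each comparison with its 95% interval (edgeR, 6 rats per comparison); filled points passed an adjusted p under 0.05. In DEN model against normal control rats Lect2 (-2.71), Slc1a2 (-2.38), Tbx3 (-1.47) and Nkd1 (1.40) are filled, and in PZH administration against normal control rats no point is filled.

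Between PZH administration and DEN model rats, which asks how the genes stood when PZH was given with the carcinogen, Lect2 and Slc1a2 rose and Nkd1 fell. These were 3 of 8 tested genes, where 19.1% of all 14272 tested genes passed. By direction, 2 of 8 were higher (8.72% of all tested genes) and 1 was lower (10.3%). At the study's thresholds 0 of 8 passed by edgeR, where 2.43% of all tested genes did, with 4 of 8 at an unadjusted p under 0.05 and 2 of 8 past the thresholds by DESeq2. Groups did not overlap in 3 of the 8 genes, beside 40.9% of all tested genes. This comparison shares its 3 DEN model rats with the preceding one, so their directions are not independent of each other.

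Lect2 stood at 74.2, 45.8 and 22.6 CPM in G27, G28 and G42, each above the highest DEN model rat at 14.6 CPM. It was 4.28-fold higher (log2 fold change 2.097, SE 0.42, adjusted p = 0.0171, edgeR), and the call was lost when M13 or M24 was left out (adjusted p = 0.0717 and 0.0623, edgeR). Its 3 PZH administration rats spanned from inside the normal control range to less than the lowest normal control rat. Slc1a2 stood at 8.83, 7.51 and 3.49 CPM in the same rats, again above every DEN model rat, and was 4.91-fold higher (log2 fold change 2.30, SE 0.64, adjusted p = 0.0403, edgeR). Leaving out any rat other than M17 took its adjusted p to between 0.0528 and 0.134. Nkd1 stood at 5.07, 4.24 and 3.06 CPM, below every DEN model rat, and was 2.25-fold lower (log2 fold change -1.17, SE 0.28, adjusted p = 0.0258, edgeR). That call was lost when M13, M24, G28 or G42 was left out (adjusted p = 0.112, 0.0572, 0.0725 and 0.0643, edgeR). In TMM-scaled CPM the 3 genes thus kept their ranges apart from the DEN model rats while their calls were lost without 1 rat or another, and without M13 or without M24 0 of 8 genes passed in edgeR. With library totals the ranges of Slc1a2 overlapped, with G42 (3.28 CPM) below M17 (3.43 CPM).

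The other 5 genes did not pass. Tbx3 stood at 6.86, 20.4 and 13.6 CPM in the PZH administration rats, with G27 below M17, and its log2 fold change was 1.54 (SE 0.57, 95% interval 0.23 to 2.84, adjusted p = 0.0930, edgeR). Without M17 it was 2.35 with an adjusted p of 0.0142. Axin2 stood at 10.3, 15.2 and 8.18 CPM, overlapping the DEN model rats through M17 (log2 fold change 0.74, 95% interval -0.04 to 1.51, adjusted p = 0.163, edgeR). Rhbg stood at 19.6, 7.86 and 14.9 CPM (log2 fold change 0.53, 95% interval -0.78 to 1.83), and it passed without M17 (1.46, adjusted p = 0.0394). Rnf43, at 9.08, 7.58 and 7.12 CPM, differed by 0.17 on the log2 scale with an interval of -0.51 to 0.85, and by -0.46 with library totals. Tcf7 stood at 2.09, 2.09 and 0.427 CPM, the last the lowest of the 9 rats, with a log2 fold change of -0.996 (95% interval -2.35 to 0.36, adjusted p = 0.266, edgeR). Cd3e had 0 reads in G42, the rat lowest in Tcf7. The sum of T-cell markers, mostly Cd4, was 41.3 to 52.1 CPM in the PZH administration rats. Stellate and myofibroblast sums were 658 to 790 CPM, between the other groups' ranges. Where a gene did not pass, the interval shows the differences that these 6 rats allow.

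**Figure D3:**
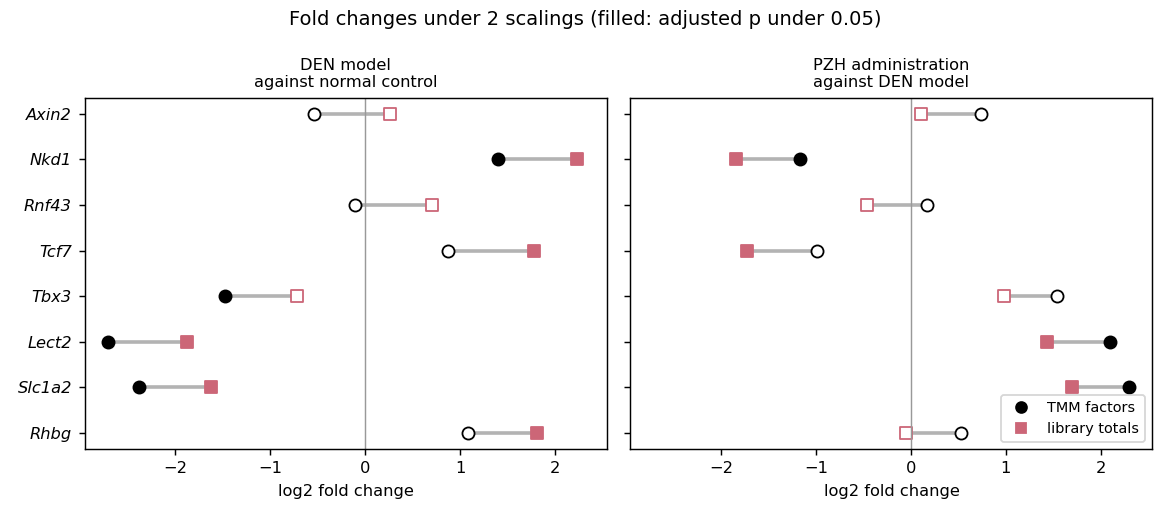
Log2 fold changes of the 8 tested genes with TMM factors and with library totals in DEN model against normal control rats and in PZH administration against DEN model rats; filled points passed an adjusted p under 0.05. Axin2 and Rnf43 changed sign between the scalings in DEN model against normal control rats (Axin2 from -0.54 to 0.26, Rnf43 from -0.11 to 0.71), and Lect2, Slc1a2 and Nkd1 kept theirs.

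Between PZH administration and normal control rats 0 of 8 genes passed by edgeR, where 5.21% of all 13348 tested genes passed, and 1 of 8, Rhbg, had an unadjusted p under 0.05. DESeq2 called 0 of 8. At the study's thresholds 0 of 8 passed too, beside 2.32% of all tested genes. Rhbg had a log2 fold change of 1.58 (SE 0.65, 95% interval 0.11 to 3.06, adjusted p = 0.235, edgeR), its PZH administration rats lying at 7.86 to 19.6 CPM and its normal control rats at 1.01 to 9.84 CPM. Lect2 was at -0.66 (95% interval -1.49 to 0.18, adjusted p = 0.394), and with G27 left out it passed at -1.14 (adjusted p = 0.0474, edgeR), so 1 rat decided on which side of the threshold it fell. The intervals were -1.11 to 0.87 for Slc1a2, -0.72 to 1.11 for Nkd1, -0.85 to 0.91 for Tbx3, -0.59 to 0.92 for Axin2, -0.57 to 0.62 for Rnf43 and -1.43 to 1.11 for Tcf7. All 8 genes overlapped between the groups, whereas 24.2% of all tested genes did not, and a lack of a call does not show equal levels. G42 held the lowest value of its group in 7 of the 9 genes.

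Rat M17 often held the highest level of its group. In Rhbg (19.7 CPM) and Rnf43 (10.1 CPM) that level lay above every normal control rat. M17 was the highest DEN model rat in 6 of the 9 genes (66.7%), in 11 of the 13 pericentral list genes (84.6%) and in 13 of the 13 periportal list genes, beside 38.6% of all 13225 genes tested in every comparison. Its hepatocyte marker sum of 72948 CPM was the highest of its group, with M13 at 45001 and M24 at 31886 CPM. Its stellate and myofibroblast sum of 1145 CPM was the lowest. The part of the hepatocyte share in the values of M17 was not tested.

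Other pericentral genes fell as Lect2 and Slc1a2 did, with Glul among the exceptions. The lists of zonation and pathway genes were chosen with earlier results of these data known, and they are described by counts with no test of the list. Of all tested genes 25.3% passed as higher and 20.5% as lower in DEN model against normal control rats. These shares were 8.72% and 10.3% in PZH administration against DEN model rats. In PZH administration against normal control rats 5.21% passed in either direction. The list counts below are to be set beside these shares. In DEN model against normal control rats 9 of 13 pericentral genes fell and 4 did not pass, with a median log2 fold change of -1.81 beside 0.03 over all tested genes. Cyp2e1, which activates diethylnitrosamine, fell from 3943 ± 1099 to 321 ± 267 CPM (SD, n = 3 rats, log2 fold change -3.61, adjusted p = 0.00243, edgeR). Cyp1a2, a drug-metabolising cytochrome, fell from 370 ± 50.8 to 27.1 ± 22.3 CPM (-3.75, adjusted p = 0.00157), the organic anion carrier Slco1b2 had a log2 fold change of -3.65 (adjusted p = 0.000545), and Oat, ornithine aminotransferase, fell from 406 ± 82.1 to 60.1 ± 14.6 CPM (-2.74, adjusted p = 0.000262). Glul, the glutamine synthetase of the innermost pericentral hepatocytes, did not pass: it was 236, 148 and 409 CPM in the normal control rats and 234, 266 and 192 CPM in the DEN model rats (log2 fold change -0.18, adjusted p = 0.707, and 0.65 with library totals). Its groups overlapped fully while Cyp2e1, Cyp1a2 and Oat did not overlap.

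The decrease was not particular to the pericentral zone: 12 of 13 periportal genes also fell, with a median log2 fold change of -2.06, among them Pck1 (-2.66, adjusted p = 0.00287), which starts gluconeogenesis, and Hal (-2.54, adjusted p = 0.00174), histidine ammonia-lyase. Without N3, 7 of 13 periportal genes passed. Of the 7 hepatocyte markers, 3 fell, Ttr (-3.89) and Apoc3 (-3.41) furthest, and 4 did not pass, with a median of -1.52. The count was 6 without M17 and 2 without any of the other 5 rats, and DESeq2 called 6. The periportal sum was 110300 to 121668 CPM in the normal control rats and 17447 to 41567 CPM in the DEN model rats, and the pericentral sum was 6553 to 9760 and 893 to 2014 CPM. Most of the periportal sum was Alb, at a mean of 94854 CPM in the normal control and 21977 CPM in the DEN model rats. Alb is also on the hepatocyte marker list, so those 2 sums are not separate evidence. Bile duct markers moved the other way, with 7 of 7 higher and sums of 30.6 to 43.0 CPM against 270 to 789 CPM. Krt19, a keratin of bile duct cells, had 9 to 30 reads in the normal control rats and 1029 to 8638 in the DEN model rats, and Krt7, another, 0 to 3 and 119 to 1355 reads. The part of these cell shares in the zonation results was not tested.

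In PZH administration against DEN model rats 8 of 13 pericentral genes rose and 5 did not pass, with a median of 1.56 beside 0.01 over all tested genes. Cyp1a2 (3.17, adjusted p = 0.0262), Cyp2e1 (3.15, adjusted p = 0.0161) and Oat (1.98, adjusted p = 0.0106) were among them, and Glul was at 0.01 (adjusted p = 0.982, edgeR). Of 13 periportal genes 2 rose, Pck1 (1.81, adjusted p = 0.0307) and Cyp2f4, a cytochrome (1.21, adjusted p = 0.0482), and the median was 1.25. The count of pericentral genes depended on the rats in the fit: it was 1 without M13, 4 without M24 and 10 without M17. That of periportal genes was 13 without M17 and 0 without any of the other 5 rats, with 10 of 13 at an unadjusted p under 0.05 and 10 by DESeq2 when all rats were in. A difference between the zones was not tested. Against normal control rats 0 of 13 pericentral genes passed in edgeR, with 3 at an unadjusted p under 0.05 and 1 by DESeq2, and 2 of 13 periportal genes were lower, Hal (-1.61, adjusted p = 0.00658) and Hsd17b13, a lipid droplet protein (-0.97, adjusted p = 0.0450), while without G27 there were 6.

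**Figure D4:**
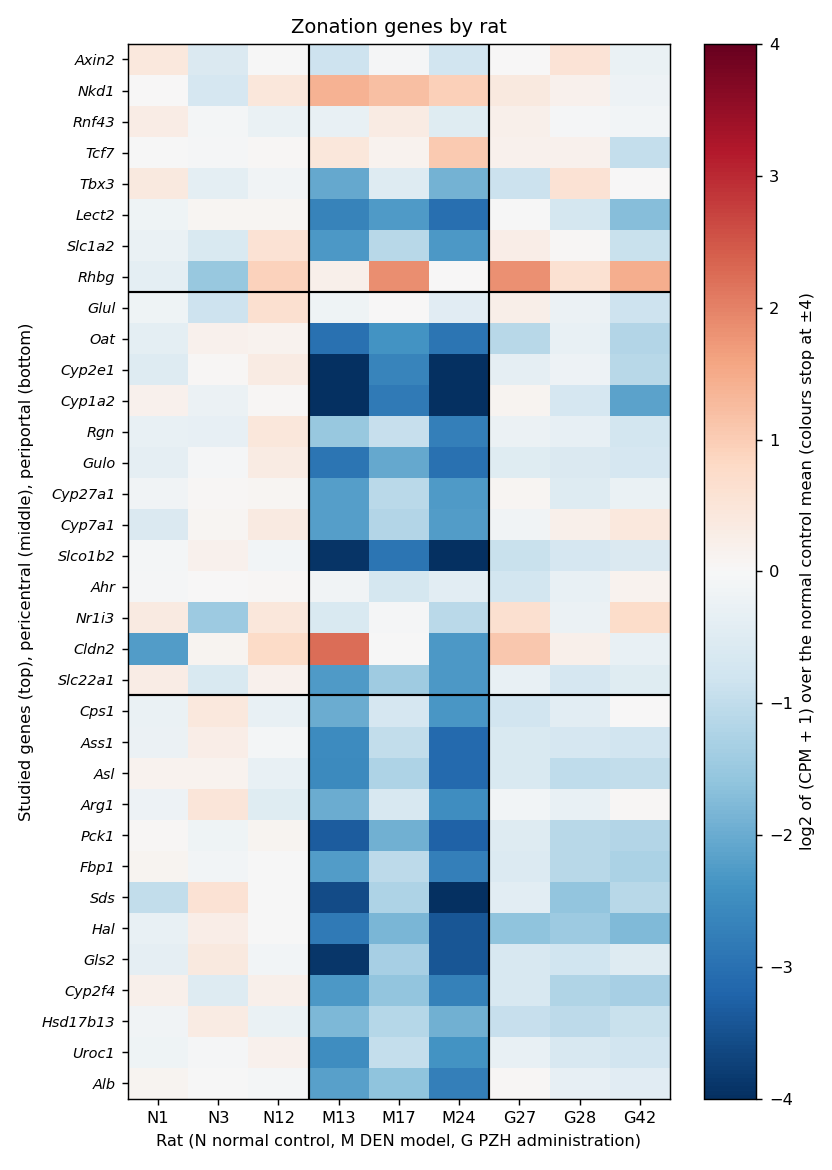
Log2 of (CPM + 1) in each rat over the normal control mean, for 8 of the genes described, 13 pericentral and 13 periportal genes (rows) in 9 rats (columns), with colours stopping at ±4. M17 is paler than M13 and M24 in most rows, Glul differs little between the groups, and Nkd1 is higher in the 3 DEN model rats.

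Of the ligands that act on these genes, 19 Wnts were in the table and 6 were tested between DEN model and normal control rats. Of these 3 rose, where 25.3% of all tested genes did, among them Wnt7b (adjusted p = 0.00182), with 0 to 4 reads in the normal control rats and 56 to 172 in the DEN model rats, and Wnt5a (adjusted p = 0.000237), with 2 to 8 and 181 to 331 reads, known mainly for signalling without β-catenin. All 3 were near the floor in the normal control rats and passed the filter on low counts through the DEN model rats. Their count and direction are therefore a description. The ligands known from central vein endothelium did not pass: Wnt2 stood at -0.54 (adjusted p = 0.572), Wnt9b at 0.51 (adjusted p = 0.450) and the R-spondin Rspo3 at -0.53 (adjusted p = 0.152). Wnt2 was 0.34 to 1.40 CPM in the normal control rats and 0.21 to 1.24 CPM in the DEN model rats, so its reads were few. With library totals Wnt2, Wnt9b and Rspo3 were at 0.23, 1.33 and 0.33, and Wnt9b passed there (adjusted p = 0.0487, edgeR). The count of 3 higher ligands became 5 without N3, 4 without N12 or M17 and 2 without M13. With PZH against DEN alone, Wnt7b (-3.22, adjusted p = 0.0116) and Wnt5a (-1.94, adjusted p = 0.0260) fell, and Wnt2, Wnt9b and Rspo3 stood at 0.83, 0.74 and 0.27 without passing. The 3 ligands that passed as lower there became 1 without M13, M24 or G42. Against normal control rats Wnt5a was the 1 ligand that passed as higher in the PZH administration rats (3.10, adjusted p = 0.0429), and 0 ligands passed in edgeR when any rat other than G27 was left out, with 2 at an unadjusted p under 0.05 and 1 by DESeq2 with all rats in, while Wnt2, Wnt9b and Rspo3 stood at 0.26, 1.22 and -0.30. The summed endothelial markers were 398 to 506, 273 to 519 and 358 to 491 CPM in the N, M and G rats, and the 3 ranges overlapped.

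Receptors moved in both directions, as did all tested genes. In DEN model against normal control rats 5 of 14 tested receptor genes fell (20.5% of all tested genes), Fzd1 (-2.30, adjusted p = 6.19e-05) and Fzd4 (-2.05, adjusted p = 0.000259) furthest, and 2 rose (25.3%), Fzd2 (4.13, adjusted p = 0.000782) and Fzd6 (2.45, adjusted p = 0.000729). Fzd2 rested on few reads in the normal control rats, at 0.31 to 1.01 CPM against 5.74 to 14.2 CPM in the DEN model rats. With library totals the balance turned, with 5 receptors higher and 3 lower, while Fzd1 (-1.44) and Fzd4 (-1.22) still fell. Fzd4 (0.98, adjusted p = 0.0164), the co-receptor Lrp6 (0.87, adjusted p = 0.0144) and Lrp5 (0.74, adjusted p = 0.0299, named after its values were seen) rose in PZH administration against DEN model rats, and Fzd2 (-1.85, adjusted p = 0.0175) and Fzd6 (-1.07, adjusted p = 0.0277) fell. With library totals 0 receptors passed as higher and 5 as lower there by edgeR, with Fzd4 at 0.33, Lrp6 at 0.21 and Lrp5 at 0.069. The counts also depended on the rats, with 0 receptors passing in either direction without M13, 0 higher and 1 lower without M24, and 2 higher and 1 lower without G28 or G42. With all rats in, 7 of 14 receptors had an unadjusted p under 0.05 and DESeq2 called 5. Fzd1 (-1.52, adjusted p = 0.0340) and Fzd4 (-1.11, adjusted p = 0.00999) were lower in PZH administration than in normal control rats, a count of 2 that was 0 without G28, 1 without N1, N3, N12 or G42 and 3 without G27.

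Of the secreted inhibitors, 4 of 8 rose in the DEN model rats, led by Sfrp1 (5.04, adjusted p = 2.1e-05) and Dkk3 (3.73, adjusted p = 0.000209), and 1 fell. The one that fell was Notum, an enzyme that inactivates Wnt ligands and itself a Wnt target, at 31.8, 19.2 and 55.4 CPM in the normal control rats and 1.27, 3.02 and 1.12 CPM in the DEN model rats (log2 fold change -4.29, SE 0.51, adjusted p = 0.00047, edgeR). It was 27.8, 20.7 and 12.5 CPM in the PZH administration rats, above all DEN model rats (3.53, adjusted p = 0.00892), and differed from the normal control rats by -0.79 without passing (adjusted p = 0.341). Of the 8 inhibitors 4 fell in PZH administration against DEN model rats, Frzb (-1.83, adjusted p = 0.0164) and Dkk2 (-1.53, adjusted p = 0.0149) furthest, and Notum was the 1 that rose. Without M13 0 inhibitors passed as lower in edgeR, while with all rats in DESeq2 called 5 of 8 in either direction and 5 had an unadjusted p under 0.05. Sfrp1 (3.51, adjusted p = 0.00245) and Dkk3 (2.18, adjusted p = 0.0195) were the 2 inhibitors higher than in the normal control rats, and 1 passed without N1, N3 or G28.

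The count of intracellular components that passed followed the scaling. Of 16 tested in DEN model against normal control rats 3 rose (25.3% of all tested genes), Bcl9 (1.33, adjusted p = 0.0051) and Tcf7l2 (0.67, adjusted p = 0.0177) among them, and 2 fell (20.5%), Dvl1 (-1.26, adjusted p = 0.0024) and Tnks2 (-0.75, adjusted p = 0.00664), but with library totals 12 were higher and 0 lower, and Tnks2 was at 0.12. Ctnnb1, which encodes β-catenin and was named after its values were seen, was at 0.11 (adjusted p = 0.669) and at 0.98 with library totals (adjusted p = 0.00453). Of the same 16, 1 passed in PZH administration against DEN model rats, Dvl1 (1.01, adjusted p = 0.0131), and with library totals 12 were lower and Dvl1 stood at 0.35 (adjusted p = 0.137). Without M13 or M24 0 of 16 passed by edgeR, with 2 at an unadjusted p under 0.05 and 2 by DESeq2 when all rats were in. Of 11 other Wnt targets tested, 6 rose and 2 fell in the DEN model rats. Those with the highest and lowest changes were Sox9 (5.57, adjusted p = 5.42e-05), a transcription factor of bile duct cells that the bile duct marker list also holds, Cd44 (4.33, adjusted p = 0.000107), a hyaluronan receptor also made by blood cells, Prox1 (-1.46, adjusted p = 0.00433), a hepatocyte transcription factor, and Notum. Sox9 was near the floor in the normal control rats, at 0.17 to 0.62 CPM against 17.2 to 24.3 CPM in the DEN model rats, so its folds over normal control rest on few reads. Against DEN model rats, the PZH administration rats differed again: Sox9 (-2.10, adjusted p = 0.00892) and Cd44 (-2.33, adjusted p = 0.00919) fell and Prox1 rose (1.096, adjusted p = 0.0440), with 3 lower and 2 higher in all. With library totals Prox1 did not pass (0.48, adjusted p = 0.180) and the counts were 6 lower and 1 higher. Without M13, M24, G28 or G42 they were 2 lower and 1 higher. Against normal control rats Sox9 (3.45, adjusted p = 0.00873) and Cd44 (1.96, adjusted p = 0.0107) were higher, and 1 of these other targets passed without N1 or G28.

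**Figure D5:**
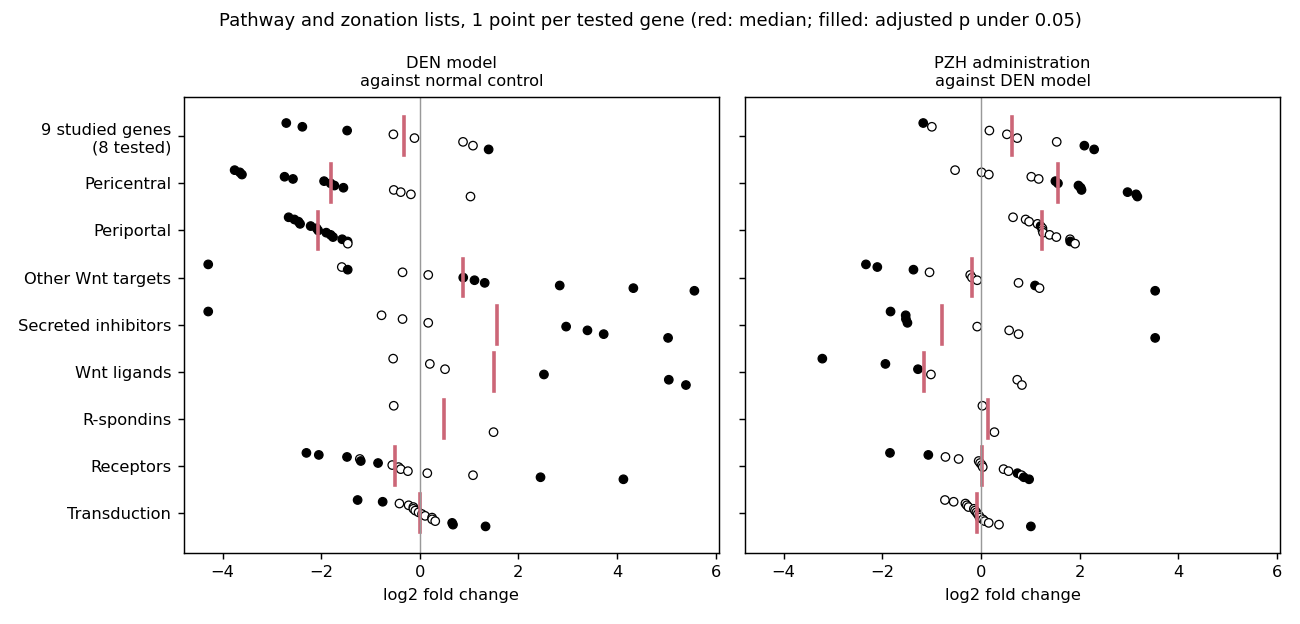
Log2 fold change of each tested gene of the pathway and zonation lists in DEN model against normal control rats and in PZH administration against DEN model rats, 1 point per gene, with the list median in red and filled points for an adjusted p under 0.05. In DEN model against normal control rats the pericentral (-1.81) and periportal (-2.06) medians lie below 0 and those of Wnt ligands (1.52) and secreted inhibitors (1.57) above it. The Wnt ligands that rose there passed the filter on low counts through the DEN model rats.

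The profile of Axin2 over the 9 rats, as log2(CPM + 1) centred on its mean, was nearest to those of Rcbtb1, Znf768 and Tnfrsf1b among 11600 genes, with root mean square differences of 0.201, 0.222 and 0.224 beside a spread of 0.462 in Axin2 itself. Lect2, with a spread of 1.19, was nearest to Slc17a2 (0.240), Irx1 (0.247) and Dcxr (0.261). The differences for Lect2 were a smaller part of its own spread than those for Axin2. These are descriptions over 9 samples that share the groups.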

How the data were processed

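Liver RNA of 9 rats was measured by RNA-seq, and the values come from 1 deposited table. Its count columns hold the whole reads that the authors counted on each gene in each rat, without normalization, and in its FPKM columns the authors related those reads to the length of the transcript and the size of the library. Per the labels, the reads were processed with fastp, HISAT2 2.1.0, StringTie 1.3.3b and edgeR 3.30.3, while the tool that counted reads and the build are not given in the sources used here. The table also holds the authors' own fold changes, P and Q of each comparison, which were left unused.

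Groups of 3 rats were compared in pairs with edgeR 4.0.16 in R 4.3.3 (filterByExpr, TMM, glmQLFit and glmQLFTest on 6 rats, no covariates), after a test on simulated data. CPM per rat used the TMM-scaled library sizes of the 9 rats. The alternatives were DESeq2 1.42.0, library totals, upper-quartile factors, no filter, at least 10 counts in every rat, all 9 rats in one fit, limma 3.58.1 on log2(FPKM + 0.1) and leaving out each rat. Chosen after seeing the data were the list counts without each rat and the Lgr5 fit without the filter.

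The members and gene lists were chosen with earlier results of these data known. The text names every member, Glul, Cyp2e1, Cyp1a2, Oat, Wnt2, Wnt9b and Rspo3, from each other list up to 2 genes with the highest and 2 with the lowest log2 fold change among those that passed, and the 3 genes nearest in profile to Axin2 and Lect2. Genes on macrophage and gut lists are left to the closing section. Promoter windows are from RefSeq (GRCr8) and were matched by symbol, and the authors' positions were not mixed with them.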

Additional observations from a re-analysis of the deposited data

How the results depend on the processing

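No paired analysis was run, since the groups held different rats and the labels give no pairing between them. Direction and an adjusted p under 0.05 held under every alternative run for Lect2 and Nkd1 in DEN model against normal control rats. In that comparison Rhbg and Tcf7 passed with library totals (adjusted p = 0.0479 and 0.00951) and in the FPKM fit by limma (0.0312 and 0.00806), and Tbx3 did not pass in either (0.177 and 0.137). Axin2 turned to 0.26 with library totals and 0.31 in the FPKM fit, and Rnf43 to 0.71 with library totals, 0.026 with upper-quartile factors and 0.69 in the FPKM fit. Leaving out 1 rat gave -0.44 to 0.076 for Rnf43, 2 to 4 passing genes of the 8 (2 without N12) and 1 to 3 past the study's thresholds (3 without M17), where DESeq2 gave 2. In PZH administration against DEN model rats the genes passing overall numbered 6232 with library totals, 6147 in the FPKM fit and 271 to 3319 without 1 rat (271 without M13, 725 without M24, 1178 without G28, 1221 without G42), against 2722. Of the 8, 0 to 5 passed without 1 rat (0 without M13 or M24, 1 without G28 or G42, 5 without M17), and past the study's thresholds were 2 with DESeq2, 1 with no filter, 1 with all 9 rats in one fit and 0 to 1 without 1 rat. Tbx3 passed with DESeq2 (adjusted p = 0.0239), and Tcf7 with library totals (0.0445) and in the FPKM fit (0.0394). Rnf43 turned to -0.46 with library totals and -0.44 in the FPKM fit, with -0.0053 to 0.48 without 1 rat, and Rhbg to -0.056 with library totals. In PZH administration against normal control rats the genes passing overall numbered 1320 with DESeq2, 340 with at least 10 counts in every rat and 207 to 1326 without 1 rat (207 without N1, 212 without G28, 335 without N12, 361 without G42, 432 without N3, 1326 without G27), against 696, and 0 to 1 of the 8 passed without 1 rat. There the log2 fold changes without 1 rat were -0.11 to 0.44 for Axin2, -0.39 to 0.35 for Tbx3, -0.13 to 0.19 for Rnf43, -0.39 to 0.36 for Slc1a2, -0.10 to 0.56 for Nkd1 and -0.46 to 0.26 for Tcf7, and Slc1a2 turned to 0.076 with library totals and 0.11 in the FPKM fit, and Tcf7 to 0.048 with library totals. Fits without a rat have fewer samples, and the cause of the other moves was not tested. Reads were few in some rats, with 0 for Lgr5, 6 for Tcf7, 12 for Rhbg, 16 for Slc1a2 and 23 for Nkd1 at the lowest. With at least 10 counts in every rat, Tcf7 could not be fitted in the 2 comparisons with PZH administration rats.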

Other observations

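Markers of other cells of the liver or of a neighbouring organ were read as context for the genes above. Of 7 macrophage markers 3 fell in DEN model against normal control rats, Marco (log2 fold change -2.72) and Vsig4 (-1.54) furthest, and 3 fell in PZH administration against DEN model rats, with sums of 501 to 907, 418 to 541 and 237 to 556 CPM in the N, M and G rats. With library totals 3 macrophage markers were higher and 1 lower in the DEN model rats, Vsig4 did not pass (adjusted p = 0.102, edgeR), and 2 passed as higher and 2 as lower without N12. The 3 that fell in PZH administration against DEN model rats became 0 by edgeR without M13, M24 or G42 and 1 without G28, with 3 at an unadjusted p under 0.05 and 3 by DESeq2 when all rats were in. Of 3 tested gut epithelium markers 2 rose in the DEN model rats, Gucy2c, at 0 reads in every normal control rat and 276 to 784 reads in the DEN model rats, and Vil1, at 0 to 7 and 87 to 541 reads, with list sums of 190 to 212 CPM in the normal control rats, 55.2 to 512 CPM in the DEN model rats and 29.2 to 132 CPM in the PZH administration rats. Gucy2c and Vil1 passed the filter on low counts through the DEN model rats, so their count and direction are a description. Cdx1, Cdx2, Olfm4 and Lgals4 did not pass that filter and were not tested. The other tested marker, Cdh17, did not pass (log2 fold change -1.01, adjusted p = 0.455, edgeR). It made up nearly all of the normal control sum, at 189 to 211 CPM, and was 10.9 to 273 CPM in the DEN model rats. The sum is therefore not a measure of gut epithelium. Of 9 endothelial markers 3 fell in the DEN model rats, among them the sinusoidal genes Clec4g (-2.10) and Kdr (-1.15), and 2 rose, Vwf (2.48) and Cdh5 (0.98), while Clec4g rose (1.36) and Vwf fell (-0.85) in PZH administration against DEN model rats. With library totals the first counts turned to 5 higher and 1 lower, with Kdr at -0.32 (adjusted p = 0.346, edgeR), and without 1 rat they were 1 to 3 higher and 1 to 4 lower. In PZH administration against DEN model rats Clec4g did not pass with library totals (0.72, adjusted p = 0.0905, edgeR), and 0 endothelial markers passed without M13 or G27, with 5 at an unadjusted p under 0.05 and 3 by DESeq2 when all rats were in.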
